A study of Mus musculus with 4 samples.

Results

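The suppressors of cytokine signalling (SOCS) are a family of 8 genes, Socs1 to Socs7 and Cish, and all 8 were followed across 4 libraries of mouse bone marrow-derived macrophages. They were taken by the gene identifiers of these symbols from the 15935 genes listed in any library. A gene not listed in a library was set to 0 there. The macrophages were grown for 5 days from marrow of adult mice of the strain C57BL/6, with conditioned medium as the source of M-CSF, a growth factor of macrophages. Wild-type mice (WT) were set against ezh2f/f lysmcre mice (KO, genotype EZH2-/- in the labels), in which Cre recombinase from the lysozyme M promoter removes floxed Ezh2 in myeloid cells. Cells of both genotypes were either kept without stimulus (NT) or exposed for 2 h to lipopolysaccharide (LPS), a bacterial ligand of the receptor TLR4. There was 1 library in each of these 4 groups, so differences have no replicate check and no test was run. The dose of LPS is not given in the labels. The labels do not say how many animals gave each library.

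SOCS proteins are feedback inhibitors of cytokine receptors that signal through Janus kinases (JAKs) and the STAT transcription factors. Each has an SH2 domain that binds phosphotyrosine and a SOCS box that recruits elongins B and C and cullin 5, which together form a ubiquitin ligase. SOCS1 and SOCS3 also carry a kinase inhibitory region that blocks JAKs. In macrophages SOCS1 is known for restraining interferon signalling and SOCS3 for restraining gp130 receptors such as that of interleukin-6, while CIS (Cish) and SOCS2 are best known as targets and inhibitors of STAT5 signalling.

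The libraries held 5237782 to 5678451 expected counts, the authors' estimates of reads per gene. Levels are given in FPKM, fragment counts scaled to transcript length and library size, with exact 95% Poisson intervals. Ratios of FPKM have exact 95% Clopper-Pearson intervals from the counts, and both kinds of interval cover only counting error; the spread between cultures or animals is unknown. Folds on the log2 scale are of FPKM + 1, which understates the change of low genes. Ezh2 stood at 2.84 FPKM in untreated and 2.52 in LPS-treated WT cells, and at 2.06 and 1.29 in KO cells, from 43, 38, 31 and 18 counts, so the KO libraries still held Ezh2 reads. The KO to WT ratio of Ezh2 was 0.725 without LPS, with an interval of 0.441 to 1.18 that includes 1, and 0.512 with LPS (0.275 to 0.920). The labels do not say which exons are floxed, so the gene's total level checks the deletion only in part, and KO stands for the libraries so labelled. All 12 macrophage markers examined were listed in each library. They summed to 5965 FPKM in untreated and 6225 in LPS-treated WT cells, and to 6938 and 6700 in KO cells. Single markers moved both ways with LPS, and in WT Cd14 went from 323 to 1263 FPKM and Mertk from 21.7 to 7.32. Markers of neutrophils and their precursors summed to 405 FPKM in untreated WT and 682 in untreated KO, and to 442.5 and 611.5 with LPS. Of 9 markers of dendritic cells, H2-Ab1, an MHC class II gene that macrophages also express, was at 106 and 107 FPKM in WT and 175 and 185 in KO, without and with LPS. The other 8 were each below 3 FPKM, with Flt3, Zbtb46, Cd209a, Clec9a and Siglech at 0.32 or less. Markers of fibroblasts and stroma summed to 6.85 and 8.28 FPKM in WT and 4.08 and 3.65 in KO. No lymphocyte marker exceeded 0.67 FPKM and no basophil or mast cell marker 0.59, and Cd3e, Ncr1 and Fcer1a were not listed in any library. In bulk RNA, fewer cells of a type and less RNA per cell cannot be told apart.

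Because Socs1, Socs3 and Cish were the members that moved most with LPS, the 250 bases before their start sites are shown, from RefSeq on GRCm38.p6, the assembly that mm10 denotes. Capitals mark matches, on both strands, to 3 letter patterns. The first is TTCNNNGAA, a STAT-type site that reads the same on both strands. The second is GAAA, any 2 bases and GAAA, an ISRE-type pattern of the kind bound by interferon regulatory factors. The third is GGG, any 5 bases and CC, a loose NF-kB-type pattern. The Socs1 window is chr16:10785537-10785786, the Socs3 window chr11:117969367-117969616 (both on the minus strand) and the Cish window chr9:107296409-107296658 (plus strand).
Socs1: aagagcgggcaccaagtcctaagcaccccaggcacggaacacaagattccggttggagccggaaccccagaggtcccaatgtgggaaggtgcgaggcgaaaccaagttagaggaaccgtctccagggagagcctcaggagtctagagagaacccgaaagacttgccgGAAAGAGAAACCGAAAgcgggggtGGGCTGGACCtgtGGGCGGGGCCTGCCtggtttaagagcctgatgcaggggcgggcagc
Socs3: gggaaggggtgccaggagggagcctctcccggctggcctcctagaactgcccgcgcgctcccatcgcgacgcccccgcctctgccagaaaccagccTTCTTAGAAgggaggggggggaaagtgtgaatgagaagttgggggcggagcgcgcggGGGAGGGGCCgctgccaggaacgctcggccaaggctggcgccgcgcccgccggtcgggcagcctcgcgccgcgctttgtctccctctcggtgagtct
Cish: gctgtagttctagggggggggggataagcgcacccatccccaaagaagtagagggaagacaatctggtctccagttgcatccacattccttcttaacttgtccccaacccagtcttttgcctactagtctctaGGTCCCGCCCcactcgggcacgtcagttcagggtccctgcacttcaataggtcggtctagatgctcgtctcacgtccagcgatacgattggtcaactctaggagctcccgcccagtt
The Socs1 window held 2 overlapping ISRE-type matches between positions -83 and -68 from the start site, a pattern found in 2.98% of 32851 promoter windows of this length. The Socs3 window held 1 TTCNNNGAA match, TTCTTAGAA from -154 to -146, a pattern found in 7.02% of windows. All 3 windows, and that of Socs4, held the NF-kB-type pattern, which 45.8% of windows hold. Of these 4 windows, which are those that matched a member, Cish and Socs4 held neither of the other patterns. GENCODE places the start of the coding Socs3 transcript 180 bases downstream of the RefSeq start used here, so the Socs3 window lies upstream of both, although the annotated gene reaches beyond it to position 117970336. Coding Cish transcripts of GENCODE start at -633, 51 and 253 bases from the RefSeq start. The bases of the Socs1 and Cish windows nearest the start site also lie in a GENCODE transcript. A match is a run of letters and was not tested as a binding site.

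The members differed in their response to LPS, described here by level. Socs3 and Cish were below 1 FPKM without LPS and Socs1 was in the middle of the family, and all 3 were far higher with LPS in both genotypes. Socs7 was higher by a ratio of 2.34 in WT and 2.00 in KO, Socs6 was lower, and Socs4, Socs5 and Socs2 differed less. The order of the members by level was therefore turned over, and the same turn was seen in WT and in KO.

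Socs3 (gene 12702, chr11:117966079-117970336 on GRCm38), the inhibitor of gp130 receptors, stood at 0.45 FPKM in untreated and 573 in LPS-treated WT cells, and at 0.83 and 711 in KO cells, from 7, 8890, 13 and 10249 counts. Both LPS libraries were far above both untreated ones, and KO was above WT in each state. The LPS to NT ratio was 1279 in WT (621 to 3182) and 853 in KO (499 to 1603). Its log2 fold ranked 4 from the highest among 10972 genes in WT and 4 among 11069 in KO. In level it ranked 108 of 13972 listed genes in WT LPS and 81 of 13956 in KO LPS.

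Socs1 (gene 12703, chr16:10783808-10785536), the inhibitor of interferon receptor signalling, stood at 4.24 FPKM in untreated and 109 in LPS-treated WT cells, and at 2.35 and 64.4 in KO cells, from 29, 750, 17 and 415 counts. It was thus higher with LPS in both genotypes and lower in KO than in WT in both states. The LPS to NT ratio was 25.8 in WT (17.8 to 38.8) and 27.5 in KO (16.9 to 47.6).

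Cish (gene 12700, chr9:107296659-107302784), which encodes CIS, had 1 count in untreated and 439 in LPS-treated WT cells. In KO it was not listed without LPS and had 488 counts with it. Its levels were 0.06, 25.8, 0 and 30.8 FPKM in that order. In WT the LPS to NT ratio was 411 with an interval of 73.3 to 16260, which rests on the single count. In KO it was at least 176-fold higher, taking 3 counts in the library as the limit that a count of 0 allows, a level of 0.175 FPKM. The exact 95% interval, which allows more than 3 counts, has a lower limit of 142.7 for the same ratio.

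**Figure D1:**
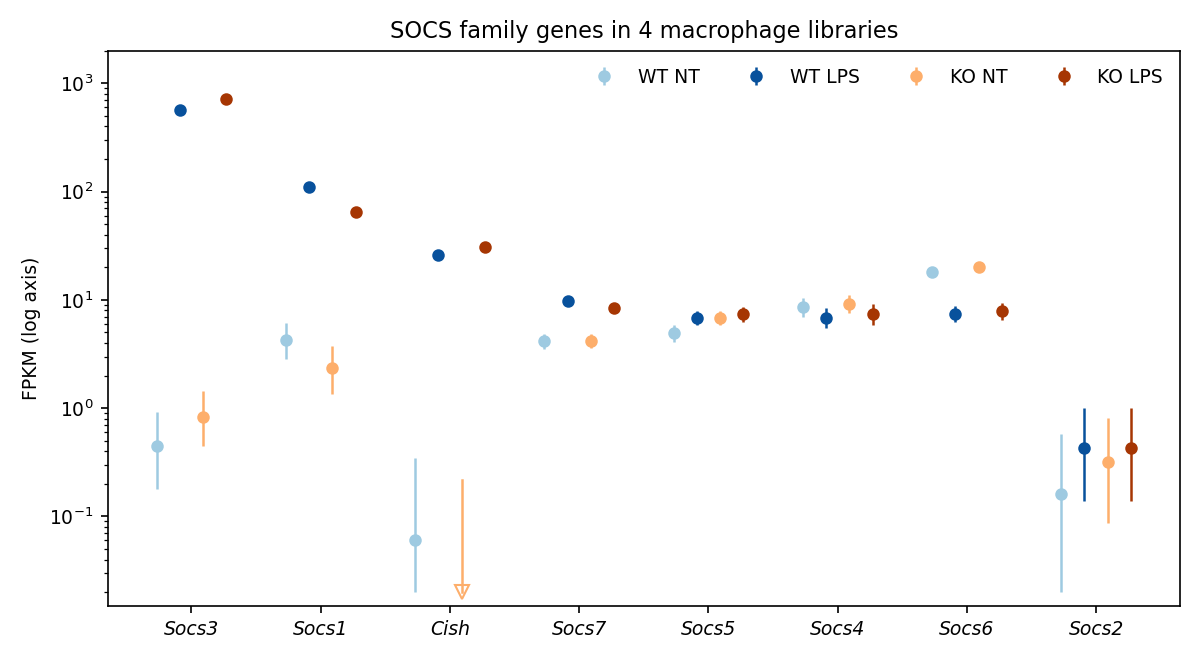
Level of each SOCS family gene in FPKM (log axis) in the 4 libraries. Points are the deposited values, lines are exact 95% Poisson intervals drawn down to 0.02 FPKM, and the open triangle marks Cish in KO NT, which was not listed. Socs3, Socs1 and Cish stand far apart between NT and LPS, while Socs4 and Socs5 stay between 4.93 and 9.18 FPKM in every library.

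Socs7 (gene 192157, chr11:97362292-97398542), a larger member that also binds adaptor proteins, stood at 4.15 FPKM in untreated and 9.70 in LPS-treated WT cells, and at 4.20 and 8.42 in KO cells. The untreated libraries were level with each other and both LPS libraries were above them. The LPS to NT ratio was 2.34 in WT (1.95 to 2.82) and 2.00 in KO (1.66 to 2.43).

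Socs6 (gene 54607, chr18:88865169-88894364) was the member with the highest level in untreated cells and the one at least 2-fold lower with LPS. It stood at 18.01 FPKM in untreated and 7.42 in LPS-treated WT cells, and at 19.96 and 7.87 in KO cells, from 330, 135, 365 and 133 counts. The ratio was 0.412 in WT (0.335 to 0.505) and 0.394 in KO (0.321 to 0.482). The median gene also had a negative log2 fold with LPS, -0.46 in WT and -0.42 in KO, and with libraries scaled by their median ratio Socs6 was at -0.74 and -0.85, no longer 2-fold lower.

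Socs4 (gene 67296, chr14:47276920-47296102) and Socs5 (gene 56468, chr17:87107278-87137647), which are close relatives known for binding the EGF receptor, differed less. Socs4 stood at 8.51 FPKM in untreated and 6.84 in LPS-treated WT cells, and at 9.18 and 7.36 in KO cells, with LPS to NT ratios of 0.804 (0.595 to 1.08) and 0.802 (0.597 to 1.08). Its log2 folds of -0.28 in both genotypes became 0.14 in WT and 0.10 in KO with median-ratio scaling, so its direction depends on the scaling. Socs5 stood at 4.93, 6.82, 6.83 and 7.35 FPKM in the same order. WT NT was the low library for Socs5, and its LPS to NT ratio was 1.38 in WT (1.09 to 1.75) and 1.08 in KO (0.867 to 1.34). Socs2 (gene 216233, chr10:95383903-95417321), an inhibitor of growth hormone signalling, rested on 2 to 5 counts per library, at 0.16 to 0.43 FPKM, and no difference was detectable at this depth.

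In WT, 4 of the 8 members were at least 2-fold higher with LPS (Socs3, Cish, Socs1 and Socs7), against 6.41% of 10972 genes tested, and 1 was at least 2-fold lower (Socs6), against 17.2%. A gene entered with at least 1 FPKM in 1 of the libraries compared, which Socs2 did not reach. Socs3 and Cish entered only through their LPS level in both genotypes, which all but fixed their direction. Nothing is therefore read from the counts of members beside these shares. In KO, 3 of the 8 were at least 2-fold higher, against 6.61% of 11069 genes, and 1 was lower, against 15.1%. Socs7 missed 2-fold in KO on the scale of FPKM + 1, with a log2 fold of 0.86 against 1.06 in WT, and with median-ratio scaling it passed in both, at 1.22 and 1.47. That scaling moves the median gene from -0.46 to -0.03 in WT and from -0.42 to -0.03 in KO, and the genes at least 2-fold higher and lower in WT from 703 and 1888 to 1050 and 825.

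**Figure D2:**
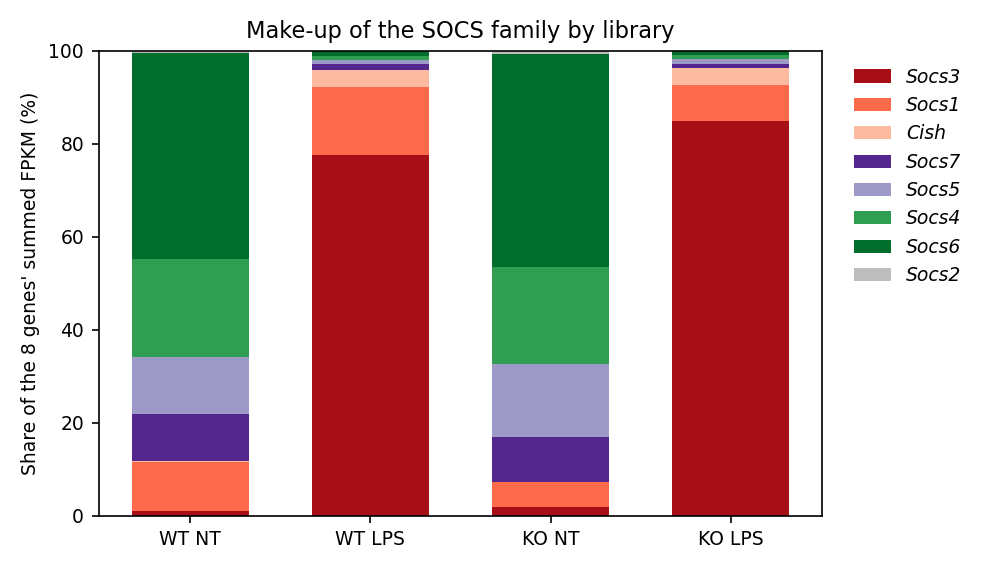
Make-up of the SOCS family in each library, as each gene's share (%) of the 8 genes' summed FPKM. Without LPS, Socs6 holds 44.5% in WT and 45.7% in KO, and with LPS, Socs3 holds 77.5% and 84.9%.

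The make-up of the family changed accordingly. The 8 genes summed to 40.5 FPKM in WT and 43.7 in KO without LPS, and to 740 and 838 with it. Without LPS, Socs6 made up 44.5% of the sum in WT and 45.7% in KO, and Socs4 21.0% in both. With LPS, Socs3 made up 77.5% in WT and 84.9% in KO, Socs1 14.8% and 7.69%, and Cish 3.49% and 3.67%. The deposited FPKM allows for length, so levels of different genes can be set side by side.

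Ordered by level in WT NT, Socs6 was followed by Socs4, Socs5, Socs1, Socs7, Socs3, Socs2 and Cish. Intervals of the ratio of neighbours included 1 for Socs5 and Socs1, Socs1 and Socs7, Socs3 and Socs2, and Socs2 and Cish. In KO NT the order was the same but for Socs1, which came after Socs7 (ratio of Socs7 to Socs1 1.79, 1.09 to 3.15). In both LPS libraries the order was Socs3, Socs1, Cish, Socs7, Socs6, Socs4, Socs5 and Socs2. There Socs6, Socs4 and Socs5 did not differ from their neighbours among these 3 beyond counting error, and in KO LPS neither did Socs7 from Socs6 (1.07, 0.871 to 1.32).

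The genotypes were then compared in each state, which asks how the family stood in cells of the floxed genotype before and after stimulation. Socs1 was lower in KO and Socs3 was higher, with intervals that left out 1 in the LPS-treated libraries only. Cish was also higher in KO with LPS, by a small ratio whose size depends on the scaling. Socs5 was higher in KO without LPS, where it was the one member whose interval left out 1. Without LPS, none of the 8 members was at least 2-fold higher or lower, against 0.928% and 0.883% of 10990 genes. With LPS, none was either, against 1.45% and 1.12% of 10375 genes. The limit of 1 FPKM was reached by 5 of the 8 members without LPS and by 7 with LPS. Each comparison of genotypes shares its libraries with the LPS comparisons above.

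Socs1 had a KO to WT ratio of 0.588 with LPS (0.521 to 0.664), from 415 and 750 counts. Without LPS the ratio was 0.553, with an interval of 0.285 to 1.04 from 17 and 29 counts, which includes 1. Its log2 fold with LPS, -0.76, was lower than that of all but 2.03% of the genes tested, where the median gene was at 0.08. Under the other scalings and pseudocounts it ran from -0.83 to -0.71.

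Socs3 had a KO to WT ratio of 1.24 with LPS (1.21 to 1.28) and of 1.86 without (0.690 to 5.51), the latter from 13 and 7 counts. Cish had a ratio of 1.19 with LPS (1.05 to 1.36). The log2 folds of 0.31 and 0.25 compare with the median gene's 0.08, and 80.7% and 73.7% of genes had lower folds. With median-ratio scaling the folds of Socs3 and Cish became 0.24 and 0.18. The intervals above hold for the deposited scaling only, and a lower limit as close to 1 as that of Cish depends on it.

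Socs5 was at a ratio of 1.38 without LPS (1.09 to 1.75) and of 1.08 with LPS (0.867 to 1.34). Socs7 was at 1.014 without LPS and 0.868 with it, and Socs6 at 1.11 and 1.06, each with an interval that included 1. Socs4 was at 1.08 in both states. With 1 library of each kind, a ratio whose interval leaves out 1 can still lie within the spread between cultures. The sums of macrophage and of neutrophil markers and the level of H2-Ab1 were higher in KO in both states. The sum of stromal markers was lower in KO in both states. The part of these markers' cell types in the ratios was not tested.

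**Figure D3:**
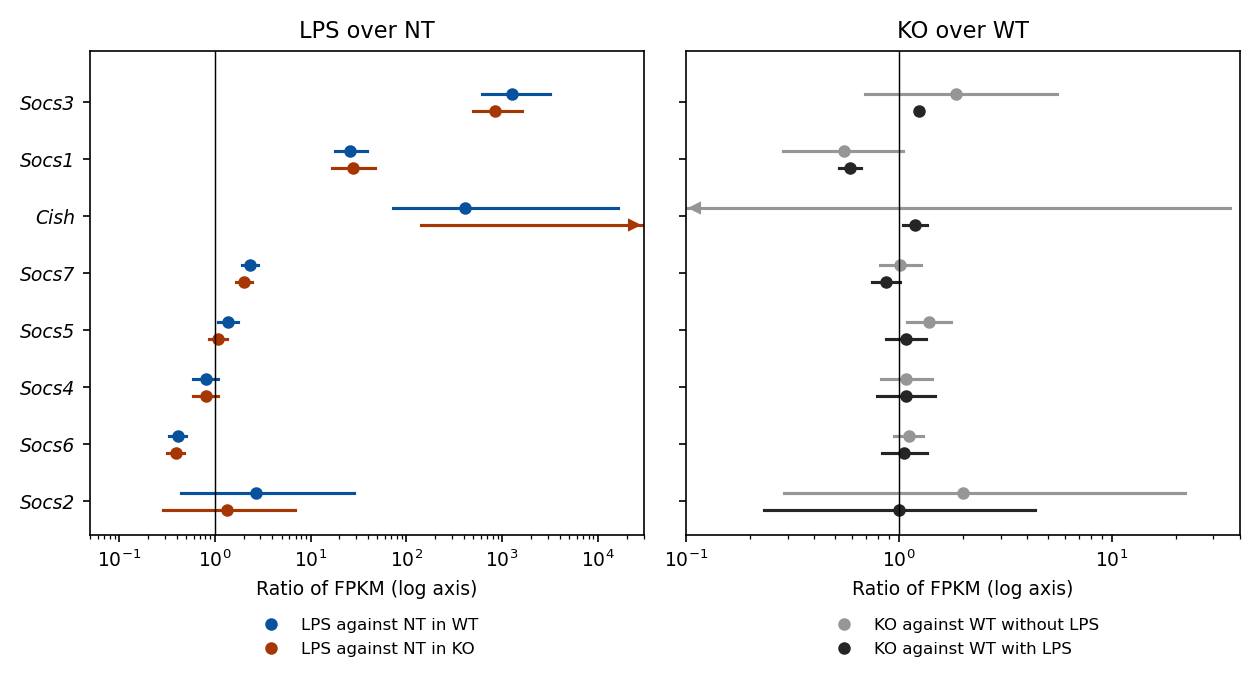
Ratios of FPKM (log axis) of LPS to NT in each genotype (left) and of KO to WT in each state (right) for each SOCS family gene. Points are ratios and lines exact 95% intervals from the counts, and arrows mark Cish in the comparisons that involve KO NT, where it had 0 counts. The intervals of the 2 LPS ratios overlap for each of the 8 genes, and Socs1 with LPS lies to the left of 1 at 0.588.

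Ratios of one member to another within a library do not depend on how libraries are scaled. Socs3 over Socs1 with LPS was 5.24 in WT (4.86 to 5.65) and 11.04 in KO (10.01 to 12.2), so that the ratio in KO was 2.11 times that in WT (1.86 to 2.39). Socs1 over Cish was 4.24 in WT and 2.09 in KO, 0.493 times as large (0.412 to 0.591). Socs3 over Cish was 22.2 and 23.1, a factor of 1.04 with an interval that includes 1 (0.910 to 1.19). The balance of Socs1 to both of the other strongly induced members was thus lower in the KO LPS library, while Socs3 and Cish kept nearly the same ratio. Without LPS, Socs3 over Socs1 was 0.106 in WT and 0.356 in KO, a factor of 3.31 (0.995 to 11.9).

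The LPS responses of the genotypes were then set against each other. The difference of log2 folds, KO minus WT, was -0.11 for Socs1, -0.03 for Socs3, -0.31 for Socs5, -0.20 for Socs7, -0.07 for Socs6, -0.01 for Socs4, -0.19 for Socs2 and 0.33 for Cish. With other pseudocounts and scalings that of Cish ran from 0.23 to 0.93 and that of Socs2 from -0.69 to -0.04, both from few counts without LPS. Over 11320 genes the median difference was 0.05 and 90% lay between -0.55 and 0.64. The interval of the ratio of LPS ratios included 1 for all 8 genes, for example 1.06 for Socs1 (0.558 to 2.09) and 0.667 for Socs3 (0.225 to 1.80). These intervals are wide for the induced genes because the untreated libraries held few of their counts.

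The genes whose centred log2(FPKM + 1) profile over the 4 libraries lay nearest to each induced member were found among 9203 genes of at least 50 counts in 1 library. Nearest to Socs1 were Nos2 (Euclidean distance 0.26), Clec4e, Mmp13, Tnfsf15 and Csf1 (0.51). Nos2 stood at 0.50 FPKM without and 28.4 with LPS in WT, and at 0.14 and 18.9 in KO. Nearest to Socs3 were Cxcl2 (1.06), Ptgs2, Il1a, Cxcl1 and Il1b (1.34), all farther away than the neighbours of Socs1. Nearest to Cish were Gm6377 (0.08), Jdp2, Nlrp3, Wdr92 and Pde4b (0.23). With LPS, these 5 genes stood at 255, 164, 432, 251 and 78.6 FPKM in WT and at 323, 223, 441, 240 and 98.9 in KO. They were picked for a profile near that of Cish over these same libraries. Their direction between the genotypes is therefore no separate evidence on that of Cish. With 4 libraries, distances describe the profiles and are no measure of a link.

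The other genes of the pathway are given in the order of signalling. The counts of each list stand beside the shares of all genes tested, which with LPS were 6.41% higher and 17.2% lower in WT, and 6.61% and 15.1% in KO. Of 23 cytokines that signal through JAKs, 16 were at least 2-fold higher with LPS in WT and 14 in KO, none was lower, and the others did not reach 1 FPKM. Of these, 11 in WT and 10 in KO reached 1 FPKM only in the LPS library, which all but fixed their direction, so nothing is read from the counts. Il12b, a subunit of interleukin-12, stood at 0.28 FPKM in untreated and 240 in LPS-treated WT cells, and at 0.14 and 155 in KO cells. Il27, a cytokine subunit, stood at 1.29, 210, 2.08 and 156 FPKM. With LPS, 14 of the 16 measured had lower levels in KO than in WT, and 2 had higher ones, among them Il10, given below. The median was -0.58 (-0.49 with 3 counts in place of 0) beside 0.08 for all genes. At least 2-fold lower in KO were 3 and higher 1, beside 1.12% and 1.45% of all genes. No share of all genes stands beside the 14, and 2 of the 16 reached 1 FPKM only in WT. Apart from Il10, the cytokines named in this paragraph are all among the 14. Ifnb1, an interferon whose receptor SOCS1 restrains, was at 177 FPKM in WT and 19.4 in KO with LPS and was not listed without it. Il6, a ligand of the gp130 receptor, was at 132 and 33.8 FPKM with LPS.

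Receptors were found on both sides. Of 26, 3 were at least 2-fold higher and 2 lower with LPS in WT, and 2 and 2 in KO, and the limit of 1 FPKM was reached by 20 and 21. Their median was -0.15 in WT and became 0.30 with median-ratio scaling. Il6st, which encodes gp130 itself, went from 44.6 to 13.2 FPKM in WT and from 52.1 to 15.1 in KO. Il6ra, the interleukin-6 binding chain, went from 22.9 to 8.41 FPKM in WT and from 28.9 to 11.8 in KO. Il10ra, the interleukin-10 binding chain, went from 50.8 to 121 FPKM in WT and from 53.5 to 97.4 in KO, and Il15ra from 2.99 to 13.1 and from 2.24 to 14.2.

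Of the 11 JAK kinases and STAT factors, Jak2 and Stat5a were at least 2-fold higher with LPS in both genotypes and none was lower. Jak2 went from 10.8 to 98.6 FPKM in WT and from 11.5 to 118 in KO. Stat5a, a mediator of the signals that CIS restrains, went from 8.55 to 28.0 FPKM in WT and from 8.63 to 49.3 in KO, and its KO to WT ratio with LPS was 1.77 (1.59 to 1.96). Stat2 went from 96.8 to 62.5 FPKM in WT and from 66.2 to 44.3 in KO, and Stat6 from 78.6 to 53.6 and from 80.0 to 59.5. The median of the list was -0.22 in WT, above the median of all genes, and 0.24 with median-ratio scaling.

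**Figure D4:**
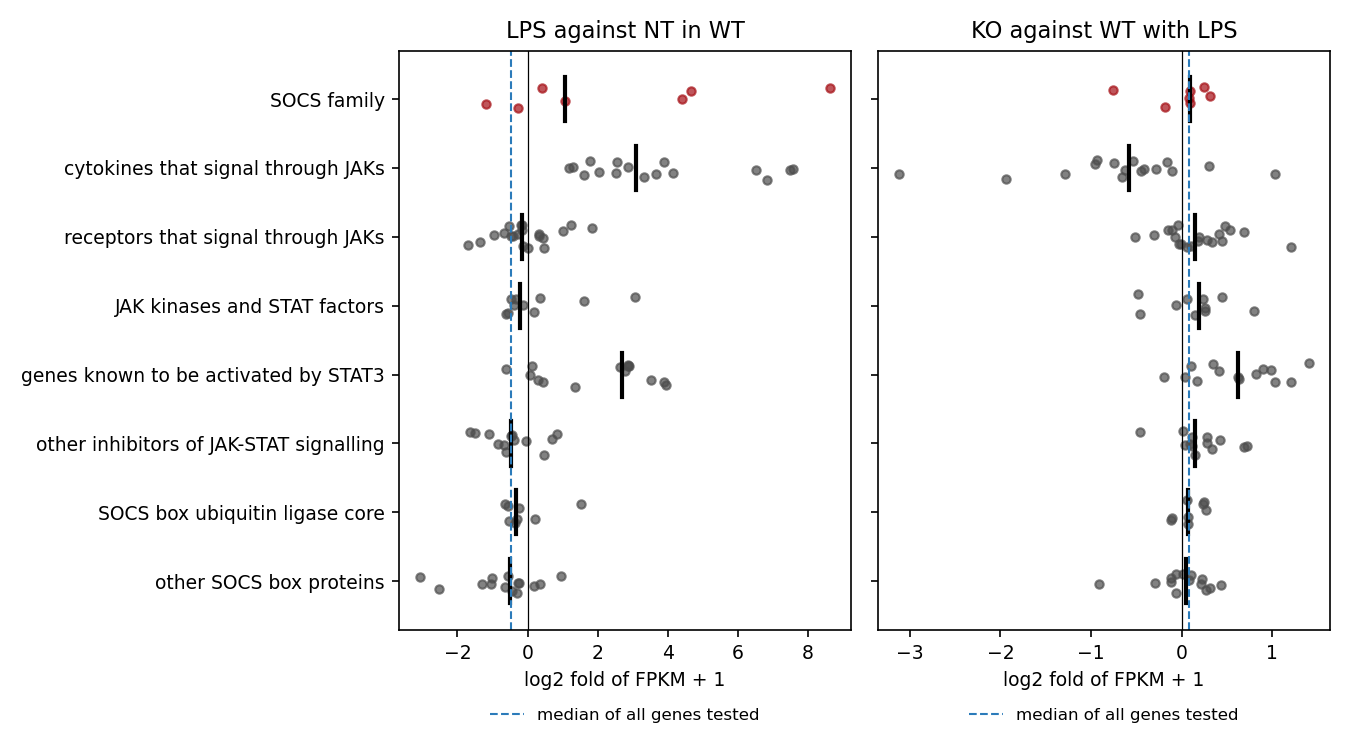
Log2 folds of FPKM + 1 of the SOCS family and of lists of genes of its pathway, for LPS against NT in WT (left) and KO against WT with LPS (right). Each point is a gene of at least 1 FPKM in 1 of the 2 libraries, spread vertically for visibility, black bars are list medians, and the dashed line is the median of all genes tested. In KO against WT with LPS, the STAT3 list has its median at 0.62.

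Of 14 genes known to be activated by STAT3, 13 had higher levels in KO with LPS, at a median of 0.62, beside 0.08 for all genes. Of these, 3 were at least 2-fold higher, beside 1.45% of all genes tested. The list was chosen with earlier results of these data known, and no share of all genes stands beside the 13. With LPS, Il10 was at 92.9 FPKM in WT and 191 in KO, Nfil3 at 49.5 and 66.0, and Junb at 352 and 395, while Pim1, which encodes a kinase, was the exception at 507 and 444. Without LPS 7 of the 14 were higher and 7 lower. Of 9 genes listed as targets of STAT5, 4 were higher and 5 lower in KO with LPS, at a median of -0.05. Not all of them are activated by STAT5, since Bcl6, which it is known to repress, is among the 5. With median-ratio scaling the medians were 0.56 for STAT3 and -0.11 for STAT5. The lists share Pim1, Bcl2l1 and other members with each other or with the lists above, many of these genes also answer to NF-kB or other factors, and the lists are not independent evidence of a direction.

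Of 13 inhibitors of JAK-STAT signalling outside the family, none was at least 2-fold higher with LPS in either genotype, and 3 were lower in WT and 2 in KO. These counts are near the shares of all genes (6.41% higher and 17.2% lower in WT). The medians were -0.47 in WT and -0.24 in KO, beside -0.46 and -0.42 for all genes (-0.04 and 0.15 with median-ratio scaling). Pias3, a protein inhibitor of STAT3, went from 7.21 to 1.62 FPKM in WT and from 7.95 to 3.22 in KO. Sh2b3, an adaptor that limits JAK2, went from 38.6 to 13.0 and from 39.3 to 16.6, and the ubiquitin ligase Cblb from 23.7 to 10.7 and from 20.4 to 10.96. Ptpn1, a phosphatase of JAK2 and TYK2, went from 52.1 to 28.4 FPKM in WT and from 52.3 to 47.6 in KO.

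Of the 8 core genes of the ligase to which the SOCS box binds, 1 was at least 2-fold higher with LPS in each genotype and none was lower, at a median of -0.34 in WT, or 0.11 with median-ratio scaling. That gene was Ube2f, the conjugating enzyme that attaches NEDD8 to cullin 5, which went from 28.3 to 82.6 FPKM in WT and from 31.8 to 97.5 in KO. Cul5 itself went from 7.12 to 4.49 FPKM in WT and from 7.76 to 4.74 in KO, and Rnf7, its RING partner, from 39.7 to 25.1 and from 42.7 to 26.2. Nedd8 went from 103 to 71.5 and from 105 to 85.9. Of 23 genes of other SOCS box proteins, 5 in WT and 4 in KO were at least 2-fold lower with LPS, and none in WT and 1 in KO higher, with 14 reaching 1 FPKM in each, beside 17.2% and 15.1% of all genes lower. The medians of the list, -0.50 and -0.53, lay near those of all genes, -0.46 and -0.42. Rab40c went from 18.8 to 1.36 FPKM in WT and from 20.3 to 1.39 in KO, Spsb2, which targets inducible nitric oxide synthase, from 48.3 to 7.49 and from 39.3 to 8.08, Asb8 from 17.8 to 6.71 and from 15.9 to 7.13, and Spsb3 from 19.6 to 8.99 and from 20.1 to 8.55.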

How the data were processed

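RNA of the 4 libraries was isolated with Trizol and a clean-up column, and HiSeq sequencing followed Illumina protocols, per the labels' protocols. Bowtie and RSEM with genome mm10 are named in the submitters' processing notes. Their versions, the strand setting and any filters were not given in the sources used here. Deposited expected counts are the authors' estimates of reads per gene, and the deposited FPKM is the authors' value rounded to 2 decimals. The deposited FPKM followed the count divided by (length - 36 bases) and by an implied library size of 5323727 to 5771584. That relation gave the levels behind each interval and the limit of 3 counts for a gene at 0, with counts rounded to whole numbers. Ratios of ratios have exact conditional 95% intervals.

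Symbols and coordinates came from RefSeq GRCm38.p6 (15897 of 15935 identifiers matched). Start sites were compared with GENCODE M21. Folds were differences of log2(FPKM + 1); genes below 1 FPKM in both libraries compared were left out, and 2-fold was the size counted. From each list at most 4 genes are named, those with the largest absolute LPS fold in WT and at least 50 counts in 1 library, and for 3 members the 5 nearest genes. The members, lists and rules were chosen with earlier results of these data known. The computations, in Python 3.11.15 with NumPy 2.4.6, pandas 2.3.3 and SciPy 1.17.1, were tested on simulated counts. Alternatives were other pseudocounts, filters, scalings, CPM and fold sizes. A further list of target genes is not reported here.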

Additional observations from a re-analysis of the deposited data

Results flagged for a closer look

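The KO to WT fold of Socs7 had opposite signs in the 2 states, 0.01 on the log2 scale without LPS and -0.18 with LPS. The difference was not tested, and the intervals of both ratios included 1. Cish stood out in the same way, at -0.08 without LPS and 0.25 with LPS. The first of these rests on 1 count in WT and 0 in KO, and the difference was not tested.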

How the results depend on the processing

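No paired analysis was possible because each group has 1 library. The count of members at least 2-fold lower with LPS, 1 in WT and 1 in KO, became 0 in both with a pseudocount of 5 FPKM, with median-ratio scaling and with a 3-fold limit, since Socs6 then missed the limit. With a 1.5-fold limit the members lower in KO became 1 without LPS and 1 with LPS, which is Socs1 in both. The other 72 counts of members over these alternatives stayed within 1.5 times the reported ones. Of the values of single members and of shared neighbours, 242 were labelled the same and 16 moved. A fold was labelled the same if it moved by less than an allowance set from the width of its counting interval. Where that interval had no finite limit, as for the LPS fold of Cish in KO, any move was labelled the same. The filter settings cannot change a fold, and shared neighbours were labelled the same at 4 or more. The 242 are therefore no measure of stability. The LPS log2 folds of Socs3 ran from 6.73 to 10.03 in WT and from 6.94 to 9.58 in KO, and those of Cish from 2.61 to 7.34 and from 2.84 to 8.27, with pseudocounts of 5 and 0.1 FPKM at the ends. The LPS folds of Socs4 took both signs. The difference of LPS folds between genotypes took both signs for Socs1 (-0.39 to 0.06), Socs3 (-0.45 to 0.21) and Socs4 (-0.05 to 0.04), and that of Cish ran from 0.23 to 0.93 and of Socs2 from -0.69 to -0.04. Of the 5 genes nearest to each induced member, 4 or 5 were kept under the other distance and the lower count limit. With 7 and 13 counts of Socs3, 29 and 17 of Socs1 and 1 and 0 of Cish, depth limits the ratios of these 3 genes that use an untreated library.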

Other observations

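NF-kB acts downstream of TLR4, and many of the genes grouped here as its feedback regulators are known to be induced alongside the SOCS genes. Of 14, 11 were at least 2-fold higher with LPS in WT and 10 in KO, and none was lower, beside 6.41% and 6.61% higher and 17.2% and 15.1% lower of all genes. The medians were 2.67 and 2.89, beside -0.46 and -0.42 for all genes. Tnfaip3, which encodes A20, went from 12.2 to 675 FPKM in WT and from 12.9 to 753 in KO. Nfkbiz went from 11.4 to 480 and from 17.9 to 467, Nfkbia from 33.6 to 791 and from 40.8 to 932, and Nfkbie from 10.8 to 145 and from 12.6 to 135. Between the LPS-treated libraries, KO was above WT for 12 of these genes, and none of the 14 was 2-fold apart. The median log2 fold was 0.22 (0.16 with median-ratio scaling) beside 0.08 for all genes. No share of all genes stands beside the 12. Some of these genes are also in the STAT3 list, so the lists are not independent.

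Of 16 genes of proteins reported to be bound by SOCS proteins, 2 were at least 2-fold higher with LPS in WT and 3 in KO and none was lower, beside 6.41% and 6.61% of all genes higher, and 12 and 11 of the 16 reached 1 FPKM. Nck1, an adaptor, went from 11.7 to 65.4 FPKM in WT and from 13.7 to 65.2 in KO, and Rela, an NF-kB subunit, from 42.1 to 115 and from 48.2 to 110. Irak4 went from 13.3 to 6.83 and from 12.7 to 8.36, and Vav1 from 70.8 to 45.0 and from 72.8 to 56.0.

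The deposited length of Socs1, which has 2 transcripts in the tables, differed between libraries, at 1220 bases without and 1231.41 with LPS in WT, and 1294 and 1246.18 in KO. Cish, also with 2 transcripts, was given 2793 bases in WT NT, 3003.87 in WT LPS and 3014 in KO LPS. In the untreated libraries these lengths rest on 29 and 17 counts of Socs1 and on 1 count of Cish. The lengths of Socs3, Socs4, Socs5, Socs6 and Socs7, with 1 transcript each, were the same in all 4 libraries. Socs2 and Socs5 overlap other annotated genes, Gm33230 and Gm30510, and without strand the reads of an overlap cannot be told apart.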
